A study of Drosophila melanogaster with 2 samples.

Results

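Binding of tramtrack was described at 10 genes of the Drosophila eye, 4 of which act in retinal determination (ey, toy, so and eya), 3 in photoreceptor fate (gl, ro and sev) and 3 in light detection (norpA, ninaE and Rh5). They were selected by name, from 13968 protein-coding genes on the chromosome arms. Tramtrack, the product of ttk, carries a BTB domain and zinc fingers and is known mainly as a transcriptional repressor. The data are chromatin immunoprecipitation sequencing (ChIP-seq) peak lists from whole embryos aged 0 to 24 h of the strain ttk-GFP, transgenic flies that express a ttk-eGFP fusion protein, which was precipitated with an antibody against GFP. The samples form 1 group of 2 libraries, biological replicates 1 and 2, and no second condition or control library was analysed here. A gene counted as bound when the summit of a peak lay in it or within 2 kb of either end, in the list the authors called conservative, which was made from both replicates by the irreproducible discovery rate (IDR) and held 3815 peaks on the arms. A second count took in the ranked peaks with an IDR score of 830 or more, the lowest score in the thresholded lists, that those lists leave out. Signal is the authors' value per peak, in a unit that none of the sources used here names, and the depth is unknown because peak lists hold no reads.

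The eye of the fly is specified by a network of transcription factors in which the Pax6 proteins Eyeless and Twin of eyeless act upstream of Sine oculis and Eyes absent. Photoreceptors are then recruited one after another, and the R7 photoreceptor needs the receptor tyrosine kinase Sevenless, whose signal leads to destruction of tramtrack through Phyllopod, Sina and Ebi. Tramtrack is known for blocking neuronal fates in that tissue. Adult photoreceptors differentiate after the embryonic stages sampled here, while the eye primordium and the larval eye, Bolwig's organ, form in the embryo. In whole embryos, binding in few cells and weaker binding in many cells cannot be told apart, and the cells in which a site was bound are not known.

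Of the 10 genes, 5 were bound in the conservative list, namely so, gl, ro, sev and norpA, with 9 summits among them. The share in all protein-coding genes was 28.2%. Long genes were bound more often than short ones, and in the tenth of the longest genes, which holds ey, toy, so, eya, sev and norpA, the share was 54.8%. It was 34.8% in the tenth that holds gl and ro, 23.8% in that of ninaE and 22.9% in that of Rh5. Over the members these shares averaged 44.5%, so the count of 5 was close to what genes of like length gave. The shares do not allow for chromosome 4, which holds ey and toy and where 2 of 80 protein-coding genes were bound. The bound members all had 2 summits except sev with 1. Of all 3944 bound genes, 28.9% had 2 or more, but the share was 55.9% in the tenth of so, sev and norpA, the longest, and 26.3% in that of gl and ro. With no flank, 4 members were bound and only norpA kept 2 summits.

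**Figure D1:**
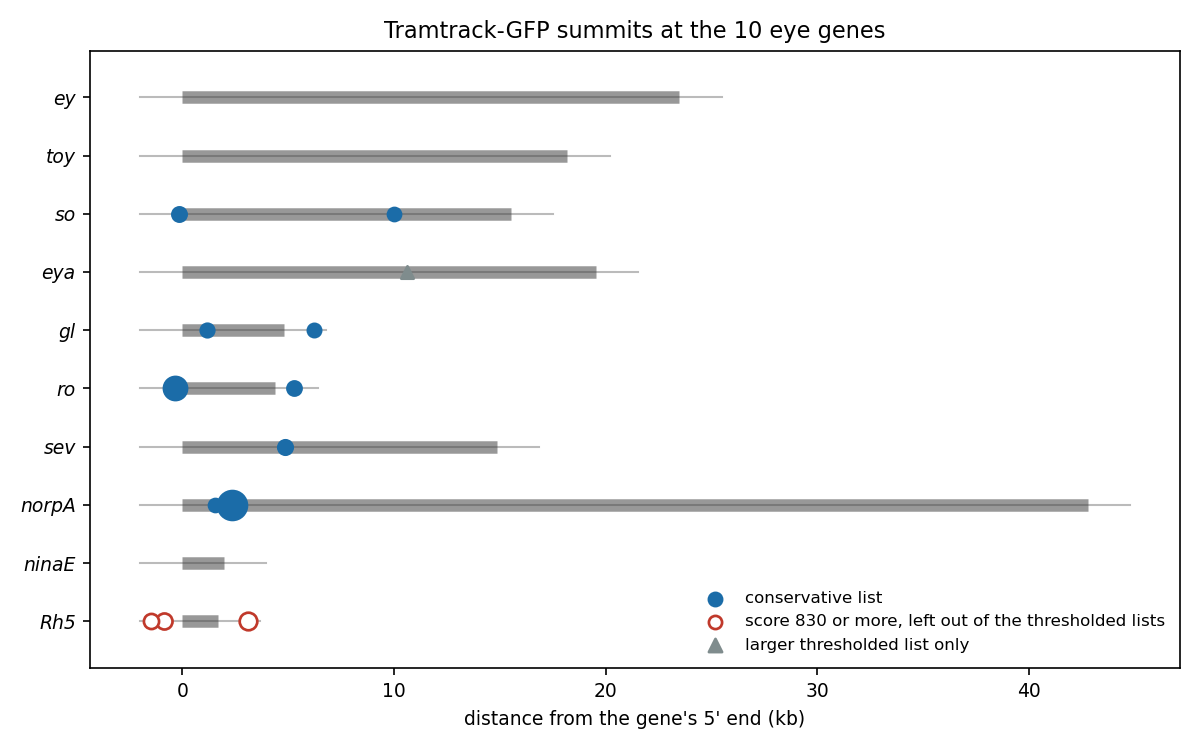
Summits at the 10 genes, by distance in kb from the 5' end of the gene (horizontal axis); grey bars are genes, thin lines the 2 kb on each side, and the area of a marker grows with the peak's signal. Filled circles are the 9 summits of the conservative list, open circles the 3 peaks at Rh5 that the thresholded lists leave out, and the triangle the eya peak found only in the larger list.

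The 2 strongest member peaks lay at norpA (signal 697, rank 92 of the conservative list) and at the promoter of ro (signal 420, rank 240). The remaining 7 had signals of 83.7 to 119 and were below the median of all conservative peaks, 122. Of the 9 summits, 5 lay in an intron of the member and the other 4 outside it. A promoter summit, within 500 bp of a transcription start site (TSS) of the gene, was found at so and ro, 2 of 10 members against 14.2% of all protein-coding genes. For 4 of the 9 summits the nearest TSS belonged to another protein-coding gene, which is named below.

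**Figure D2:**
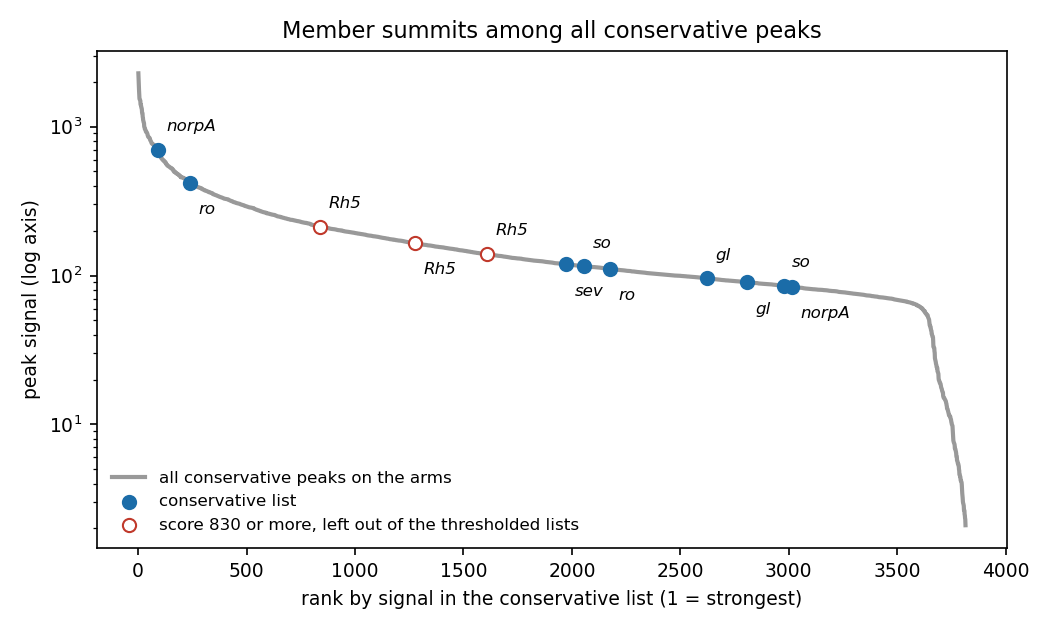
Signal (log axis) against rank for all 3815 conservative peaks (line), with the 9 member summits of that list (filled) and the 3 left-out peaks at Rh5 (open) placed by signal. The strongest peaks of norpA and ro stand near the top, and the other member peaks of the list lie in its lower part.

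Among the 4 members that act in retinal determination, so was the only one with conservative summits. It encodes a homeodomain protein that partners Eyes absent and spans chr2R:7419350-7434872 (forward strand, FBgn0003460). Its promoter peak, 141 bp upstream of the TSS (chr2R:7419037-7419380), had a signal of 115, with 65.7 in replicate 1 and 55.5 in replicate 2. Both replicates held it in their own thresholded lists. The other summit (chr2R:7429205-7429548, signal 85.2) lay in the sixth intron, 784 bp upstream of the nested gene CG11145, with 55.3 in replicate 1 and 31.7 in replicate 2. It reached the threshold in replicate 1 (score 1000) but not in replicate 2 (score 262), and the authors' larger list leaves it out.

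The Pax6 genes ey (chr4:697689-721173, FBgn0005558) and toy (chr4:989725-1007922, FBgn0019650) both lie on the small chromosome 4 and neither was bound in any thresholded list. The chromosome itself carried 1 of the 3815 conservative peaks, and 2 of its 80 protein-coding genes were bound. That peak, with a signal of 457, lay 184 bp upstream of a TSS of PlexA, 19363 bp from toy and 306112 bp from ey. Weak ranked peaks at these genes came almost wholly from replicate 1. At ey, replicate 1 had 16 ranked peaks with signals of up to 22.2 (score 58), against 2 in replicate 2 with signals of up to 11.4 (score 14). At toy, replicate 1 had 9 with signals of up to 29.7 (score 96), against 0 in replicate 2. The whole chromosome showed the same imbalance, with 228 ranked peaks in replicate 1 and 48 in replicate 2, or 0.25% and 0.042% of the peaks of each list on the arms. The replicates' own thresholded lists held 12 peaks on the chromosome in replicate 1 and 1 in replicate 2. How well reads can be placed on chromosome 4 was not measured, so a lack of peaks at ey and toy is not a measured lack of binding.

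The eya gene (chr2L:6527447-6546976, reverse strand, FBgn0000320), encoding the phosphatase and transcriptional coactivator that pairs with Sine oculis, had a peak past the threshold in replicate 1 only. It lay 238 bp upstream of an internal TSS (chr2L:6536177-6536520), inside the first intron of 1 transcript. Replicate 1 gave it a signal of 62.4 and a score of 1000, and replicate 2 had no ranked peak within 150 bp of it. The peak entered the authors' larger list (signal 69.3, score 841) and had a score of only 41 when the 2 replicates were ranked against each other. The strongest peak of replicate 2 at eya stood elsewhere, 4494 bp upstream of that TSS, with a signal of 27.6 and a score of 77. The nearest conservative summit was 10556 bp outside the gene, at the promoter of IFT52. The 201 bases about the eya summit (chr2L:6536249-6536449, forward strand, NCBI sequence of dm6) are shown for comparison with the bound sites below. Capitals mark a pair of overlapping matches to GAGAG, the site of the GAGA factor.
eya summit: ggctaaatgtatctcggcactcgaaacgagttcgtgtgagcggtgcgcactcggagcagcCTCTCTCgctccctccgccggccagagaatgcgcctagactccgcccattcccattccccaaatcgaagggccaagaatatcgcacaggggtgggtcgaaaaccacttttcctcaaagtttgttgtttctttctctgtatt

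The gl gene (chr3R:18367927-18372738, reverse strand, FBgn0004618) encodes Glass, a zinc-finger protein needed for photoreceptor differentiation. Its intronic peak (chr3R:18371371-18371714, signal 95.7) lay 1195 bp into the gene, in the second intron of 283 bp, with signals of 50.3 in replicate 1 and 35.3 in replicate 2. Neither replicate reached the threshold alone there (scores 192 and 552), so the call rests on the ranking of both together. The other peak (chr3R:18366331-18366674, signal 90) was 1424 bp beyond the end of gl and 135 bp upstream of Nup43, a nucleoporin gene. Its signals were 36.1 in replicate 1 and 55 in replicate 2, and replicate 2 alone passed it (score 1000, against 178 in replicate 1).

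The ro gene (chr3R:26876771-26881171, reverse strand, FBgn0003267) encodes Rough, a homeodomain protein that sets the fates of the earliest photoreceptors. Its strong peak (chr3R:26881391-26881597) was narrow, 207 bp wide, whereas 74% of the conservative peaks had the same width of 344 bp. The summit fell on the same base in both replicates and in the joint list, and its signal was 232 in replicate 1 and 170 in replicate 2. It sat in a divergent promoter, 330 bp upstream of ro and 233 bp upstream of T48, a gene for a membrane protein of the gastrulating mesoderm that is read the other way. The weaker peak (chr3R:26875710-26876053, signal 111) was 889 bp beyond the end of ro, near the TSS of ms(3)K81, a gene for a paternal-effect telomere protein. Its summit was 30 bp inside ms(3)K81 in the joint list, but 13 bp upstream of that TSS in replicate 1 and 12 bp in replicate 2. The signal was close in both replicates, 53.6 in replicate 1 and 49.3 in replicate 2, and the peak passed the threshold in each.

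The sev gene (chrX:11071441-11086299, reverse strand, FBgn0003366) encodes the receptor Sevenless. Its single summit lay in the second intron, 4878 bp from the TSS (chrX:11081249-11081592, signal 119), and the next TSS of another protein-coding gene, Vago, was 7869 bp away. The signal was 78.4 in replicate 1, past the threshold, and 44.7 in replicate 2, where the score was 265. Neither replicate's thresholded list held a peak at the sev promoter, where the ranked peak of replicate 1, 5 bp upstream of the TSS, had a signal of 15.7 and a score of 83.

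The norpA gene (chrX:4322626-4365408, forward strand, FBgn0262738) encodes the phospholipase C of phototransduction, which couples light-activated rhodopsin to the opening of ion channels. Its strong peak (chrX:4324870-4325105, 236 bp wide) lay in the first intron, 1380 bp past the nearest TSS of the gene, and its signal was above that of 97.6% of the conservative peaks. The signal was 298 in replicate 1 and 406 in replicate 2, and the summits of the replicates lay within 2 bp of each other. A weaker peak (chrX:4324003-4324346, signal 83.7) stood 814 bp from it in the same intron, with 36.1 in replicate 1 and 68.1 in replicate 2 (scores 54 and 1000). Replicate 2 alone also passed a site in norpA 568 bp upstream of the nested gene CG12693 (signal 37.6, score 843), which replicate 1 did not have and the conservative list leaves out.

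The sequences about these summits are given as 201 bases of the forward strand of dm6, from the strongest site of the set, a promoter, an intron of gl and the weaker norpA site. Capitals mark matches, on either strand, to 10 motifs searched and to CCACTGTGC, a run described further on. In the norpA peak of highest signal (chrX:4324889-4325089) none of them was found. The ro promoter window (chr3R:26881401-26881601) held AGGGTGG at 46 to 40 bp before the summit and AGGAC at 84 to 88 bp after it.
norpA strongest summit: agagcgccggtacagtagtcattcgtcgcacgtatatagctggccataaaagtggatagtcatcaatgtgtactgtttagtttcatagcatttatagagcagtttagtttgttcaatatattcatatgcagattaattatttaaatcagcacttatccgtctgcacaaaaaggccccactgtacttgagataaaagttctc
norpA weaker summit: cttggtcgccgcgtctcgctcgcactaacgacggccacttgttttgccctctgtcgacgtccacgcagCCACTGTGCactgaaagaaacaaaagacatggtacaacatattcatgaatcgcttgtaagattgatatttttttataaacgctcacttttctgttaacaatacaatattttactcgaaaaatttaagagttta
ro promoter summit: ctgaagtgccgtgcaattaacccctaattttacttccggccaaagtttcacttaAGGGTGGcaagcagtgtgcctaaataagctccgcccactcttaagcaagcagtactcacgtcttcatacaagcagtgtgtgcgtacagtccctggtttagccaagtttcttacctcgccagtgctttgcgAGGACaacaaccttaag
gl intronic summit: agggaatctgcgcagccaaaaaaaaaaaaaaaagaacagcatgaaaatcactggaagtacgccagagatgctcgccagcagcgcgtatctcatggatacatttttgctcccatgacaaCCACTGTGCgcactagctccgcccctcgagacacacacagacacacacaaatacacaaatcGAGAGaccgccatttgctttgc

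At the rhodopsin genes the outcome depended on which list was read. Rh5, which encodes a blue-sensitive rhodopsin of R8 photoreceptors and of the larval eye (chr2L:12008153-12009832, forward strand, FBgn0014019), had no peak in any thresholded list. In the ranked list made from both replicates it had 3 peaks within 2 kb, each with the highest score of 1000 in the joint list and in both replicates' own lists. The strongest (chr2L:12011085-12011428) was 1425 bp beyond the gene's end, with a joint signal of 213, and 118 in replicate 1 and 96.1 in replicate 2. The others were upstream of the gene. The peak at 841 bp (chr2L:12007140-12007483, signal 165) had 119 in replicate 1 and 52.3 in replicate 2, and that at 1450 bp (chr2L:12006531-12006874, signal 139) had 83.2 in replicate 1 and 61.3 in replicate 2. All 3 exceeded the median of the conservative list, 122, and by signal they would have ranked 839, 1278 and 1610 in it.

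A further ranked peak past the same score (chr2L:12012278-12012443, signal 242) lay 2551 bp beyond Rh5 and was left out as well. These 4 summits span 5680 bp, inside a stretch of 55945 bp between neighbouring conservative summits that holds no peak of the conservative list, of the larger list or of either replicate's thresholded list. Left-out peaks were rare: of 3898 ranked peaks at a score of 830 or more, 83 (2.13%) were absent from the conservative list, with 51 on chromosome arm 3R, 22 on 2L and 2 on chromosome 4. Among all protein-coding genes, 12 had 3 or more such summits within 2 kb, and Rh5 was the only one of the 10 members with any. With ranked peaks counted, 6 of 10 members were bound against 28.6% of protein-coding genes, a share not matched for gene length. These peaks may have been removed on purpose: the deposited file listing names, for the thresholded lists and not for the ranked ones, a further source file that was not used here. Its content is not known, so the count of 6 includes peaks that may have been filtered out by the authors, and the reason for their absence was not tested. From these, 2 windows are shown, the site of highest signal (chr2L:12011157-12011357) and the upstream site nearest to the TSS (chr2L:12007212-12007412). In the first, capitals mark TGACTCA, the AP-1 site, and a pair of matches to TGATAC, the core bound by Sine oculis; the second, with 58.7% G and C, held none of the motifs.
Rh5 downstream summit: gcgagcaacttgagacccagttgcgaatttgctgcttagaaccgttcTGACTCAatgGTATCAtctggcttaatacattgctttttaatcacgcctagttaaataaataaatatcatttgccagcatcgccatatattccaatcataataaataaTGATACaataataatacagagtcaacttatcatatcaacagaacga
Rh5 upstream summit: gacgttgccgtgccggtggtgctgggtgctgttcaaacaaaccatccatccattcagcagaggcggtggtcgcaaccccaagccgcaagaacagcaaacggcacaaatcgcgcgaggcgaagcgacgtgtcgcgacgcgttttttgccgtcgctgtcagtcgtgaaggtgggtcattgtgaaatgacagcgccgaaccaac

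The ninaE gene (chr3R:19886255-19888206, reverse strand, FBgn0002940) encodes the main rhodopsin of the outer photoreceptors and was not bound in the conservative list. Replicate 1 passed a peak 1857 bp upstream of its TSS (signal 43, score 913), where replicate 2 had a signal of 22.5 and a score of 234. The joint ranked peak there had a signal of 67.5 and a score of 393, under the threshold. Its summit lay 626 bp upstream of CG4733, by the replicate 1 position, and the conservative summit nearest to ninaE, of signal 133, was 4052 bp upstream of it and inside CG4733. Ranked peaks within ninaE itself were weak, the highest with a signal of 50.9 and a score of 98.

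The replicates were set side by side at each site. Over 3579 conservative peaks found in both replicates' ranked lists, the log2 ratio of replicate 1 to replicate 2 had a median of 0.15 and an SD of 0.49. The median at the 9 member summits was 0.24. When the summits had to match within 50 bp it was -0.16, over fewer sites. That match drops both so summits (0.24 and 0.80) and the sev summit (0.81), where a replicate's summit lay farther off. Of the 9 summits, 5 were more than 1 SD from the median of all peaks, a larger share than the 30% of all peaks. The SD was taken over peaks of every signal, whereas 7 of the 9 summits were below the median signal. Replicate 1 was the higher at sev (0.81) and at the so intron (0.80), and replicate 2 at the gl summit near Nup43 (-0.61) and at both norpA summits (-0.45 and -0.92). The last of these was the farthest from the median of all peaks, at -2.19 SD. With 2 libraries, no test of any single ratio was possible. In the replicates' own thresholded lists 6 members were bound in replicate 1 (so, eya, ro, sev, norpA and ninaE), where 24.8% of protein-coding genes were, and 4 in replicate 2 (so, gl, ro and norpA), where 25% were. The members bound in both lists were so, ro and norpA. The larger list held 6 members, with eya added, against 31.9% of protein-coding genes. The shares for these lists were not matched for gene length, and most members are long genes.

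**Figure D3:**
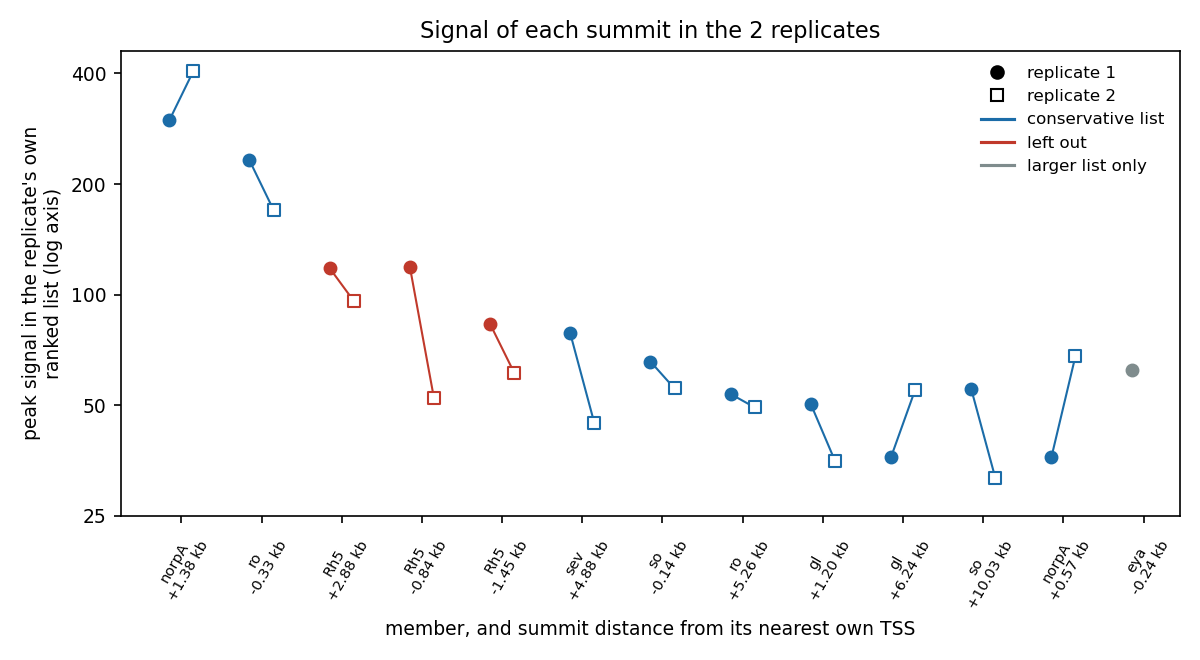
Signal (log axis) of each summit at the members in replicate 1 (filled circles) and replicate 2 (open squares), with lines joining the pair, ordered by joint signal. The eya site has a value in replicate 1 only, and the strongest norpA site is higher in replicate 2 (406) than in replicate 1 (298).

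The motifs searched began with AGGAC, the core of the site of the isoform Ttk69, then the longer forms GGTCCT and GGTCCTGC. Next were AGGGCGG or AGGGTGG, the site of the isoform Ttk88, TGATAC, and the homeodomain palindrome known as P3 from opsin promoters, TAAT and ATTA with 3 bases between. The last were GAGAG, the site TATCGATA of the replication-related element factor, the site CAGGTAG of Zelda, and TGACTCA. Both strands were read, and GGTCCT overlaps AGGAC on the other strand. Of the 9 conservative windows at members, 1 held AGGAC (at ro), as did 9.36% of all conservative windows of the same length. The Ttk88 site was in 1 (at ro; 2.83% of all), GAGAG in 1 (in the gl intron; 24% of all) and the P3 palindrome in 1 (at the gl summit near Nup43, from 5 bp before to 5 bp after the summit; 2.83% of all). None held GGTCCT (1.42% of all), GGTCCTGC (0.0786%), TGATAC (6.47%), TATCGATA (2.39%), CAGGTAG (0.629%) or TGACTCA (1.52%). The windows had a median of 40.3% G and C, against 35.3% over all conservative windows.

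A run of 9 bases outside that set, CCACTGTGC, recurred at 3 of the 13 member windows examined, those of the so promoter, the gl intron and the weaker norpA summit. It was chosen after its values were seen, from 6 words of 8 bases that 3 windows shared, and joins the 2 of them with the largest excess at summits, CACAGTGG (read on the other strand) and CACTGTGC. Of the other 4, CTCCGCCC (0.367% of conservative windows, against 0.55% of windows beside them) and GAGCGAGA (1.55% against 2.07%) were less frequent at summits. AAAGAAAC (2.99% against 2.36%) and AAATGTAT (5.95% against 3.07%) were more frequent there. The joined run was present in 151 of the 3815 conservative windows (3.96%), against 22 (0.577%) of the windows centred 500 bp to one side of the same summits. At the members it began 22 bp before the summit in so, 18 bp after it in gl and 32 bp before it in norpA. No factor is assigned to it here.

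The wider eye network was read from a list of 108 genes, of which 104 matched the annotation. The list was chosen with earlier results of these data known, so a share above that of like length only describes it. Without the 10 members, 35 of 94 were bound (37.2%), beside 28.2% of all protein-coding genes and a mean of 39.6% for genes of like length. In the groups that follow, the members are counted too. Photoreceptor fate genes held the highest number of bound genes, 18 of 32 (56.2%, against 43.1% for like length). Bound genes of that group include the members gl, ro and sev, and also ttk itself, with 7 summits. The flies are transgenic for ttk-eGFP and no control library was analysed, so the number of ttk copies behind these summits is not known. In that group the strongest sites were at aos, encoding a secreted inhibitor of the EGF receptor (539), at elav, a neuronal RNA-binding protein gene (527), and at S, encoding a factor that traffics EGF ligands (482). Retinal determination genes had 3 of 13 (23.1%, against 45%), with so (115), hth, a homeodomain gene (321), and dan (109), where the summit was 183 bp upstream of the neighbouring gene lobo. Of the signalling genes of the eye progenitors 3 of 8 were bound (37.5%, against 40.5%), with N, the Notch receptor gene (372), dpp, a BMP ligand gene (287), and emc, encoding an inhibitor of proneural proteins (99).

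Phototransduction genes had 7 of 18 bound (38.9%), the same share as the mean for genes of like length (38.9%). After norpA, the strongest summits were at rdgC, encoding the rhodopsin phosphatase (524, 388 bp upstream of a TSS), and at Cds, a phosphoinositide recycling gene (261), with the TSS of Uba2 nearest. Opsin and opsin maturation genes had 3 of 13 (23.1%, against 27.5% for like length), led by ninaG, an oxidoreductase gene of chromophore synthesis (426, in a promoter shared with Sptz), and Cnx99A, encoding the chaperone calnexin (253). Of the opsins on the list, only Rh7 was bound in the conservative list (87.1), with its summit 93 bp upstream of CG9760. The cone and pigment cell genes had 2 of 7 (28.6%, against 52.6%), kirre, an adhesion gene, and ct (205). The kirre gene spans 394149 bp and had 21 summits. Its strongest (390) lay in an intron, 2537 bp from the nearest TSS, that of CG32795. The rhabdomere genes had 3 of 5 (60%, against 45.6%), namely crb (126), ninaC (102) and eys (84.4), and eye pigment genes 1 of 8 (12.5%, against 27.4%), cn (77.3). The cn summit was 52 bp beyond the end of cn and 108 bp upstream of CG46385. These groups are small, and their shares are given as counts. The shares for like length do not allow for chromosome 4, which holds ey and toy of the retinal determination group.

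**Figure D4:**
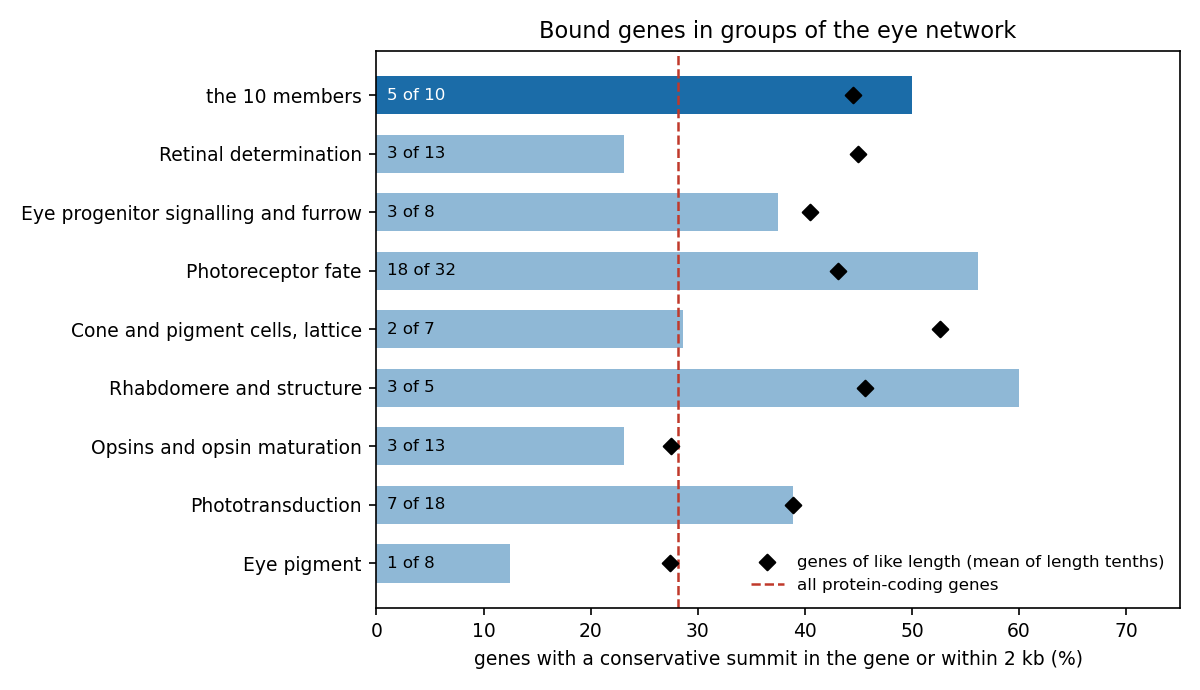
Percentage of genes with a conservative summit in the gene or within 2 kb, for the 10 members and for 8 groups of the wider eye list, in which the members are counted too (bars, with counts). Diamonds give the mean share for genes of like length and the dashed line the 28.2% of all protein-coding genes; the bars of the 10 members (5 of 10), photoreceptor fate genes (18 of 32) and rhabdomere genes (3 of 5) pass both, and those of retinal determination (3 of 13), opsin (3 of 13) and eye pigment genes (1 of 8) reach neither.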

How the data were processed

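ChIP-seq of ttk-GFP embryos was deposited as peak lists on the assembly dm6, per the labels. The authors gave each peak an IDR score, a signal value and a summit offset (aligner, peak caller and signal scaling not given in the sources used here). Ranked and thresholded lists existed for each replicate and for both together. Genes and TSSs came from Ensembl release 115 (BDGP6, same assembly), without transposable elements, and bases from the NCBI sequence. A replicate's signal was that of its ranked peak with the nearest summit within 150 bp. Gene length was compared in 10 classes of equal size over all protein-coding genes. Motifs were sought within 100 bp of summits. Named genes were the 10 members and, in the wider list, the 3 strongest per group; 4 listed symbols did not match. Members and lists were chosen with earlier results of these data known. No test was made, as there was 1 group. The second joint ranked list was not used. Coordinates are 1-based. Python 3.11.15, numpy 2.4.6, pandas 2.3.3 and matplotlib 3.10.9 were used; gene and motif assignment was tested on simulated data.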

Additional observations from a re-analysis of the deposited data

How the results depend on the processing

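The 5 bound members, 9 summits, 2 promoter summits and 40 bound genes of the wider list were recounted under other settings. Most counts stayed within 1.5 times. Among conservative peaks of at least the median signal there were 2 bound members (ro and norpA), 2 summits, 1 promoter summit and 26 wider genes. Without flanks, 5 summits remained at 4 members. With promoters of 250 bp, 1 member had a promoter summit. The AGGAC count, 1 within 100 bp, was 0 within 50 bp and 2 within 150 bp. With the list of the other replicate alone, bound members numbered 4 to 6, summits 7 to 8, promoter summits 2 to 3 and wider genes 35 in both cases. A flank of 5 kb added ninaE. No paired analysis was possible because there was only 1 group. Read depth is unknown, so weak sites at the members may lie below detection.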
